A study of Mus musculus with 6 samples.

Results

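Integrins and laminins were followed through mouse reprogramming: the receptors that hold cells to the surrounding matrix, and the chains of one of their main ligands. Members were the genes whose symbol is Itga or Itgb with a number or a subunit letter, or Lama, Lamb or Lamc with a number, each read from the brightest of the probe sets that name it alone. The rule gave 33 of 18193 genes on the array: 15 integrin alpha subunits, 8 integrin beta subunits and 10 laminin chains, covered by 72 probe sets. Genes entered the tests if their mean log2(intensity + 16) over the arrays lay above the 40th percentile of probe set means, an intensity of 33.5, which kept 28 members among 12622 genes.

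The cells were embryonic fibroblasts of strain B6CBAF1/J. All of them received SOX2 and KLF4, with the OCT4 version called 5R in O(5R)SK cells and wild-type OCT4 in O(WT)SK cells, and they grew in serum-containing medium for embryonic stem cells with leukemia inhibitory factor. What 5R denotes and how the factors were delivered are not given in the labels. RNA from days 3, 5 and 7 of each combination went onto 1 Affymetrix array apiece, so there were 6 arrays and no replicate of any combination on any day. P-values below use the days as repeats for the combinations and the combinations as repeats for the days, and measure the spread between these arrays only. The arrays had been scaled to a common trimmed mean of 500, and correlations between pairs of arrays across probe sets lay between 0.974 and 0.982. The median intensity of O(5R)SK day 7 was 67.8 against 58.8 to 61.2 on the other arrays, and its highest was 34285 against 40353 to 47606. All 11 fibroblast markers listed were above the filter, with Col1a2 between 20424 and 31887 over the arrays. By the test over days given below, 3 of them fell, beside 3.68% of all genes. Of 7 endothelial markers, Pecam1, Cdh5 and Tie1 were below the filter, and 4 were above it, among them Tek at 418 to 598.

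Integrins are dimers of 1 alpha and 1 beta subunit that span the membrane, bind matrix outside the cell and connect inside it, through adaptors such as talin and kindlin, to actin. Fibroblasts on plastic are held largely by fibronectin receptors. Laminins are trimers of an alpha, a beta and a gamma chain, assembled inside the cell and built into the basement membrane on which epithelia rest. Reprogramming fibroblasts pass through a mesenchymal to epithelial transition, in which the cells' contacts with matrix and with each other are remade. Intensities of different probe sets depend on the probes, so levels are compared below within a gene, with 2 exceptions. Summed marker intensities, and words such as bright, dim or largest part, cross genes and are only rough.

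The promoters of 3 genes are shown for members that passed the test over days: Lamb3, which had the largest rise, Itgb5, and Itga5, which had the largest fall. They come from RefSeq (GRCm38.p6) and run from 250 bases before to 50 bases after a transcript start, on the gene's strand. Capitals mark 4 motifs searched on both strands: the octamer core TGCAAAT, the AP-1 site TGANTCA, the E-box CACCTG and the GC box GGGCGG. Motifs of different kinds did not overlap here. The Lamb3 window lies at chr1:193301993-193302292 on the plus strand, that of Itgb5 at chr16:33829415-33829714 on the plus strand and that of Itga5 at chr15:103366742-103367041 on the minus strand.
Lamb3: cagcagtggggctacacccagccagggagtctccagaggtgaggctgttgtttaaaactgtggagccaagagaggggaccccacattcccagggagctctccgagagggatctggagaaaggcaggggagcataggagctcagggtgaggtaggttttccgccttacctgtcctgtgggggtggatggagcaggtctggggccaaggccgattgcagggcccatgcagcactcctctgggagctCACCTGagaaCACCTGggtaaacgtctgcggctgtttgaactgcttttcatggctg
Itgb5: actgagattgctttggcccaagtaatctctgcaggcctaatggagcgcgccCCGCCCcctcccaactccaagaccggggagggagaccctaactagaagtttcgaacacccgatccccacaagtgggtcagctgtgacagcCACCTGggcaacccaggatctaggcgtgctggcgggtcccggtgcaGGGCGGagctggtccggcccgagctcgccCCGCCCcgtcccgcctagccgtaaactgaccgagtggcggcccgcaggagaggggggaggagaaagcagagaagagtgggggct
Itga5: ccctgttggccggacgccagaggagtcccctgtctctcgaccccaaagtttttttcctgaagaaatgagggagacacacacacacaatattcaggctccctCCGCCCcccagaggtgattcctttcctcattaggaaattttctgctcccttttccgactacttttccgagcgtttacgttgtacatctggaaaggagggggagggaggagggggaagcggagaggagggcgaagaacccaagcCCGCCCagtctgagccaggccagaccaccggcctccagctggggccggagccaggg
The Lamb3 window held an E-box on each side of the start, its bases beginning at -6 and at 5. A second Lamb3 start, upstream, had none of the 4 motifs in its window. Itgb5 had an E-box and 3 GC boxes, and Itga5 had 2 GC boxes with no E-box. The windows of Lamb2 and Itga1, which also passed the test over days and are not shown, had none of the 4 motifs. Promoter windows were found for 21 of the 33 members, 24 windows in all. Lama1 and Itgb2, which passed as well, had no window. An E-box was present in 7 of these windows (29.2%) against 20.2% of 32841 windows of all genes, and a GC box in 12 (50%) against 35.7%. An AP-1 site was present in 3 (12.5%) against 7.81%, and the octamer core in 1 (4.17%) against 4.02%. With so few windows, 1 window more or less shifts each share. A match is only a run of letters, and binding was not measured.

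The comparison of day 7 with day 3 asks how adhesion genes changed while both combinations reprogrammed. Laminin beta chains Lamb3 and Lamb2, the alpha chain Lama1 and the integrin subunit Itgb5 rose, and the integrin subunits Itga5, Itgb2 and Itga1 fell. In limma's fit over all tested genes, 4 of 28 members (14.3%) were called higher and 3 (10.7%) lower at an adjusted p under 0.05, against 6.52% and 3.68% of the 12622 genes. Those shares stand for 823 higher and 464 lower genes, and with the arrays shifted to a common median there were 579 higher and 593 lower. The median change of the tested members was 0.11 on the log2 scale, beside 0.03 for all genes, and the median size of change, sign aside, was 0.36 beside 0.22. Values were positive for 18 of 28 members (53.4% of all genes). Lamb3 and Lama1 both rose at least 2-fold (2.53% of all genes), and Itga5 and Itgb2 fell at least 2-fold (1.07%). Both day 7 arrays read above both day 3 arrays for 11 of 28 members (31.5% of all genes) and below them for 8 (26.2% of all genes). Intensities increased in the order of days 3, 5 and 7 in both combinations for 8 members (14.9% of all genes) and decreased in that order for 5 (12.9% of all genes). The calls need all of the day 3 and day 7 arrays: without any 1 of these 4 arrays limma called 0 members, and 0 genes in all. Leaving out any array moved no change named below for a called gene by more than 1.5 times.

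**Figure D1:**
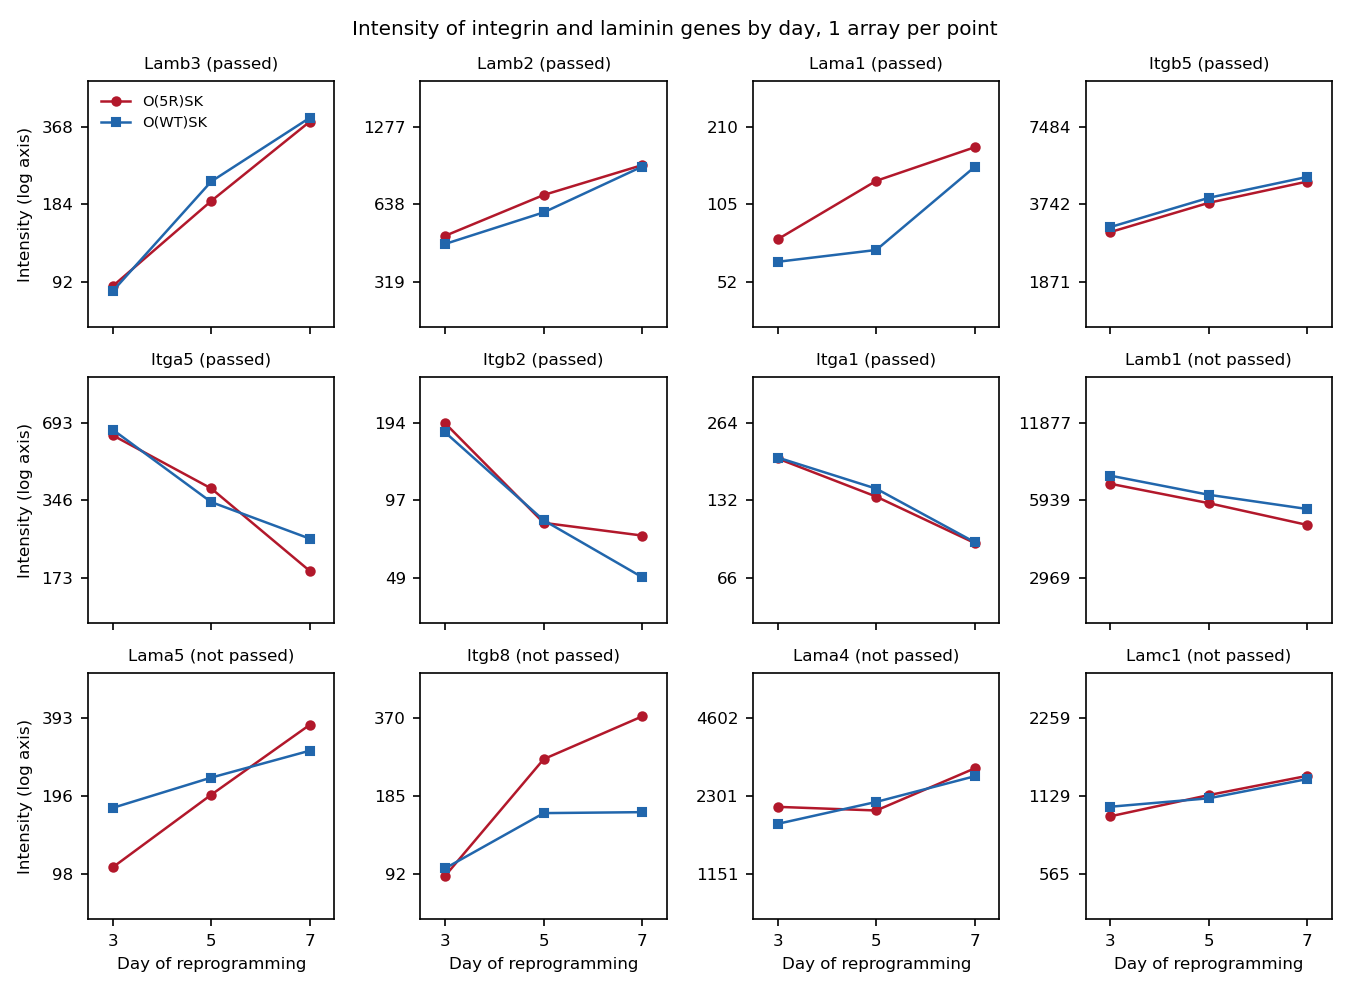
Intensity of 12 integrin and laminin genes on days 3, 5 and 7 (horizontal axis) on a log axis that spans the same ratio in every panel; red circles are O(5R)SK, blue squares O(WT)SK, 1 array per point. The 7 genes whose change from day 3 to day 7 passed the threshold come before the 5 that did not, and the lines of Lamb3, Itgb5 and Itga1 nearly coincide in both combinations.

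Of the 10 laminin chains, 3 rose and 0 fell by the test, beside 6.52% and 3.68% of all genes. Lamb3 encodes the beta chain of the epithelial laminin that anchors skin to its basement membrane. It read 88.6, 190 and 386 on days 3, 5 and 7 with O(5R)SK, and 84.8, 226 and 399 with O(WT)SK. Each later day was above the earlier ones in both combinations. The change from day 3 to day 7 was 1.99 on the log2 scale (SE 0.12, adjusted p = 0.00765), or 3.98-fold. Lamb2, a beta chain of basement membranes in kidney, muscle and vessels, read 483, 695 and 908 with O(5R)SK and 449, 595 and 896 with O(WT)SK. It rose by 0.93 (1.91-fold, SE 0.10, adjusted p = 0.0176), with the days in order in both combinations.

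Lamb1, the beta chain of most embryonic laminins, had lower values on later days without passing the test. Its intensities were 6885, 5788 and 4764 with O(5R)SK and 7403, 6238 and 5493 with O(WT)SK, so that each later day was lower in both combinations. The change was -0.48 (SE 0.097, adjusted p = 0.0512), just outside the threshold. It was called lower under 4 alternatives, with adjusted p-values of 0.00236 to 0.0282, and under the others adjusted p was 0.0516 to 0.219. Relative to Lamb1 on the same array, Lamb3 gained 2.47 on the log2 scale in O(5R)SK and 2.47 in O(WT)SK, and Lamb2 gained 1.42 and 1.40. A factor that scales a whole array cancels in such relative changes, apart from the pseudocount. A distortion that depends on intensity does not cancel between a dim and a bright probe set. O(5R)SK day 7 had the highest median and the lowest maximum of the arrays, which a single factor does not describe.

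Among the alpha chains, Lama1 is the chain of the earliest embryonic basement membranes. Its intensities were 76.8, 129 and 175 with O(5R)SK and 62.8, 69.8 and 147 with O(WT)SK. On day 5 the O(WT)SK array was still near its day 3 value, while the O(5R)SK array was well above its own. From day 3 to day 7 it gained 1.04 with O(5R)SK and 1.05 with O(WT)SK, a mean change of 1.04 (2.06-fold, SE 0.17, adjusted p = 0.0341), and after quantile normalization it was 0.93 and missed the threshold (adjusted p = 0.0540).

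Lama5, the alpha chain of most adult epithelial basement membranes and of laminins on which pluripotent cells grow, read 104, 199 and 371 with O(5R)SK and 177, 232 and 295 with O(WT)SK. The days were in order in both, and the change of 1.19 (SE 0.25) stood at an adjusted p of 0.0560. It passed under 8 alternatives, among them the mean of its probe sets (0.87, adjusted p = 0.0482). Lama4, a chain of vessel and mesenchymal laminins, read 2090, 2023 and 2949 with O(5R)SK and 1795, 2184 and 2748 with O(WT)SK. Day 7 was the highest day in both combinations, and the change was 0.55 (SE 0.12, adjusted p = 0.0601), past the threshold under 3 alternatives.

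Lama2, the chain of muscle and nerve laminins, stayed between 1244 and 1412 on all 6 arrays (change 0.02). Lama3, which partners Lamb3 in the epithelial laminin, was dim: it read 43.4, 26.0 and 54.5 with O(5R)SK and 31.1, 16.4 and 50.8 with O(WT)SK. In both combinations its lowest value was on day 5, and day 7 lay above day 3. The mean of both combinations for day 7 minus day 3 was thus positive for all 5 alpha chains (53.4% of all genes), 1 of them past the threshold. For Lama2 the combinations differed in sign, -0.08 with O(5R)SK and 0.12 with O(WT)SK.

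Lamc1, the gamma chain of most laminins, read 942, 1140 and 1353 with O(5R)SK and 1027, 1107 and 1315 with O(WT)SK. The days were in order in both combinations, but the change of 0.43 missed the threshold (SE 0.10, adjusted p = 0.0697) and passed it under 4 alternatives. Lamc3, a gamma chain described in nerve and skin, read 53.1, 42.9 and 42.0 with O(5R)SK and 72.1, 51.1 and 20.3 with O(WT)SK. Its change of -0.77 (SE 0.27, adjusted p = 0.149) rested mainly on the O(WT)SK day 7 array: without it the value was -0.29. Without O(WT)SK day 3 it was -0.47, and without O(5R)SK day 7 it was -1.24.

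Epithelial markers moved over the same days. Of 11 listed, 8 were tested, of which Cdh1, Dsp and Krt8 rose and Krt19 fell, beside 6.52% and 3.68% of all genes. Summed, all 11 listed read 3016, 3263 and 4001 on days 3, 5 and 7 with O(5R)SK and 3058, 3350 and 3141 with O(WT)SK. Bright genes weigh most in such sums, and Dsp and Krt19 moved in opposite directions. With O(WT)SK, Dsp read 784, 1241 and 1454, and Krt19 read 1684, 1390 and 740. Between days 3 and 7 of that combination, Cdh1 went from 102 to 252 and Krt8 from 62.8 to 152. Cldn4, Cldn7 and Esrp1 lay below the filter. Their part in the laminin changes was not tested. In bulk RNA, a change in how many cells express a gene cannot be told apart from a change in RNA per cell.

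The fibronectin receptor subunit Itga5 had the largest fall of any member. Its product pairs with that of Itgb1 and is a main receptor of fibroblasts for fibronectin. Itga5 read 619, 385 and 184 with O(5R)SK and 651, 341 and 246 with O(WT)SK. Both day 7 arrays were far below both day 3 arrays, with day 5 between them. The change was -1.51 (2.84-fold lower, SE 0.16, adjusted p = 0.0159). Its 4 probe sets, all above the filter, gave changes between -1.51 and -0.78.

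Other subunits that bind matrix proteins through an arginine-glycine-aspartate motif did not follow Itga5 past the threshold. Itgav, the alpha subunit of vitronectin receptors, stayed between 13749 and 15040 on the 6 arrays (change 0.03). Itga8, a receptor subunit for nephronectin and for the product of Egfl6, read 1036, 679 and 868 with O(5R)SK and 803, 644 and 592 with O(WT)SK. Day 3 was its highest day in both combinations, and the change was -0.34 (SE 0.14, adjusted p = 0.195). That value was -0.18 without the O(WT)SK day 7 array.

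Itga1, the alpha subunit of a collagen and laminin receptor, fell almost identically in both combinations. It read 192, 136 and 90.1 with O(5R)SK and 194, 147 and 90.8 with O(WT)SK. The change was -0.97 (1.96-fold lower, SE 0.096, adjusted p = 0.0143). Its second probe set was below the filter, and the mean of both gave -0.44 (adjusted p = 0.302). The collagen receptor subunits Itga2, at 23.6 to 46.6, and Itga10, at 38.0 to 69.8, were near the filter throughout, with changes of 0.02 and -0.04.

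Of the alpha subunits that bind laminin, Itga6, which is also abundant on stem cells and pairs with Itgb1 or Itgb4, was bright. It read 4991, 5874 and 6637 with O(5R)SK and 4908, 5834 and 6029 with O(WT)SK. The days were in order in both combinations, and the change of 0.35 was not past the threshold (SE 0.099, adjusted p = 0.0963), which it passed under 2 alternatives. Itga3, the main epithelial laminin receptor subunit, lay between 243 and 297, and Itga7, that of muscle, between 96.6 and 161. Their changes were 0.06 and 0.16, with no common order of days. Itga4 encodes a leukocyte and embryonic receptor subunit for fibronectin and Vcam1. It read 341 with O(5R)SK and 553 with O(WT)SK on day 3, and 533 and 515 on day 7. On this probe set the combinations differed on day 3 and met on day 7, which its others above the filter did not show. Of those, the brighter read 104 and 138 on day 3 and 114 and 85.0 on day 7. The dimmer read 55.7 and 42.5 on day 3 and 34.7 and 61.6 on day 7. Itga9, which binds tenascin, lay between 57.5 and 75.4.

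**Figure D2:**
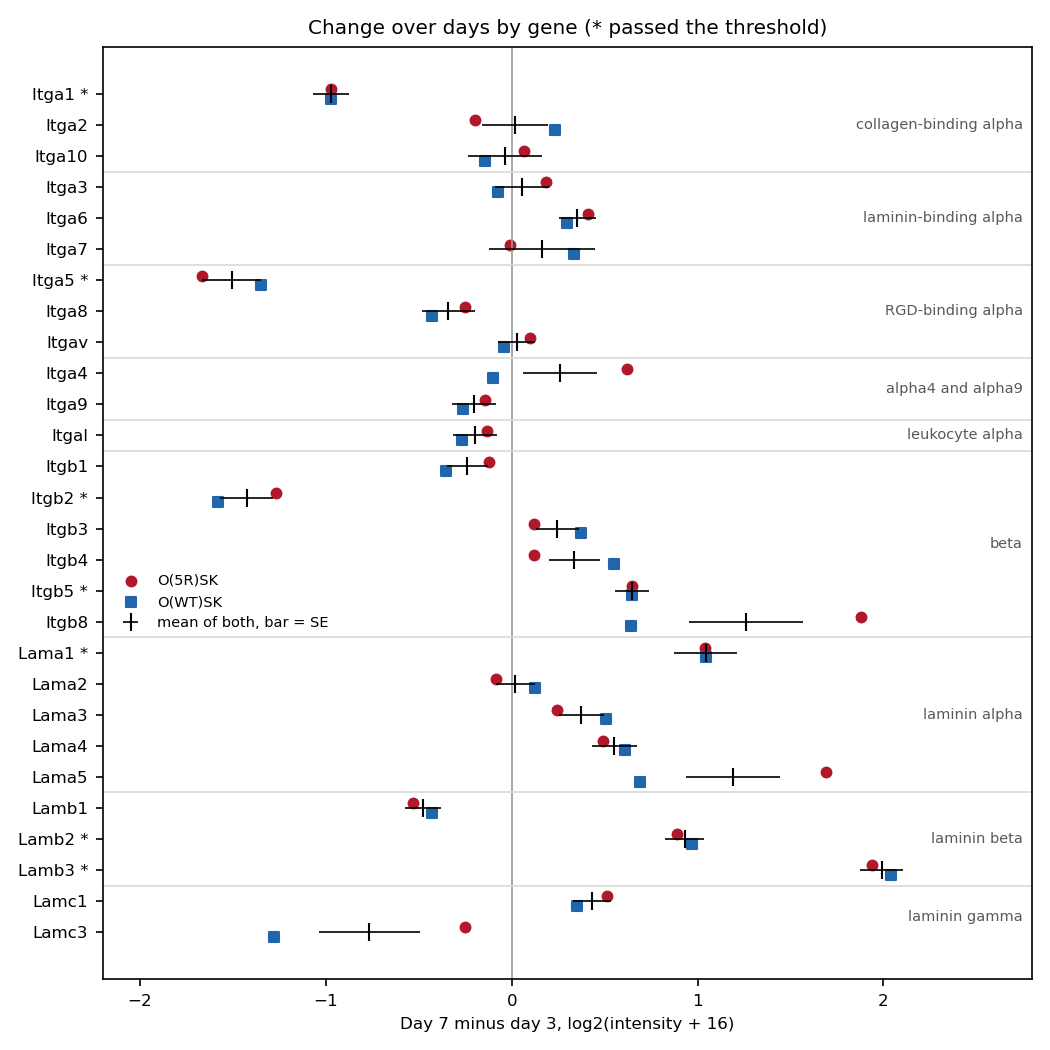
Day 7 minus day 3 in log2(intensity + 16) for the 28 tested members, grouped by role down the page; red circles are O(5R)SK, blue squares O(WT)SK, and black ticks with bars the mean of both with its SE from limma. Lamb3 stands at 1.99 and Itga5 at -1.51, and the combinations lie farthest apart for Itgb8, Lama5 and Lamc3.

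Among the beta subunits, Itgb5, which pairs with Itgav in a vitronectin receptor, rose alike in both combinations. It read 2924, 3798 and 4594 with O(5R)SK and 3058, 3972 and 4790 with O(WT)SK. The change was 0.65 (1.57-fold, SE 0.093, adjusted p = 0.0269), and with arrays shifted to a common median it was 0.55 and just missed the threshold (adjusted p = 0.0506). Its 4 probe sets gave between 0.53 and 0.65. Itgb1, the partner of most alpha subunits named here, read 11618, 11996 and 10658 with O(5R)SK and 12052, 11986 and 9437 with O(WT)SK. Its change was -0.24, and its 5 probe sets above the filter ran from -0.24 to 0.36, so they disagree in sign.

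Itgb8, whose product with that of Itgav activates latent TGF-beta, read 90.6, 257 and 377 with O(5R)SK and 96.9, 159 and 160 with O(WT)SK. The arrays of day 3 were alike, and both combinations were higher on later days, O(5R)SK more so. The change of 1.26 missed the threshold (SE 0.31, adjusted p = 0.0722) and passed it under 3 alternatives. The fit lacking O(5R)SK day 3 gave 0.77, and the fit lacking O(5R)SK day 7 gave 0.82. Itgb4, the hemidesmosome subunit that pairs with Itga6, read 522, 653 and 569 with O(5R)SK and 428, 622 and 635 with O(WT)SK. Day 3 was lowest in both, with a change of 0.34. Itgb3, a subunit of vitronectin receptors and of the platelet fibrinogen receptor, was lowest on day 5 in both combinations, as its values below show.

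Itgb2, the beta subunit of leukocyte integrins, read 193, 79.3 and 70.8 with O(5R)SK and 178, 81.1 and 48.8 with O(WT)SK. Most of its fall lay between days 3 and 5. The change to day 7 was -1.43 (2.69-fold lower, SE 0.14, adjusted p = 0.0145). Among its alpha partners, Itgal lay between 120 and 161 and had a change of -0.20, and Itgam (18.8 to 39.9) and Itgax (19.1 to 31.5) were below the filter. The other members below it were Itgae (9.76 to 50.4) and Itgb7, which pair on lymphocytes, and Itgb6, whose product is an epithelial partner of Itgav, and over these 5 genes no array exceeded 50.4.

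Leukocyte and macrophage markers fell over the same days as Itgb2. Of 14 listed and 13 tested, 9 were lower on day 7 and 0 higher, beside 3.68% and 6.52% of all genes. Their median change was -1.21. Their summed intensity was 10736, 6005 and 4359 on days 3, 5 and 7 with O(5R)SK and 11284, 6364 and 4592 with O(WT)SK, of which Lyz2 made up the largest part. No marker was listed at 0, and the lowest value was 2.15, for Marco on O(5R)SK day 7. The part of these cells in the Itgb2 fall was not tested. Smooth muscle genes were lower too, 4 of 6 past the threshold, beside 3.68% of all genes. Their summed intensities were 94141, 82614 and 60595 for O(5R)SK and 93451, 88242 and 80211 for O(WT)SK. Among the fibroblast markers Thy1 (-0.71), Postn (-0.65) and Fap (-0.48) fell. The summed fibroblast markers read 98764, 93106 and 83761 with O(5R)SK and 104874, 106033 and 113472 with O(WT)SK. Bright genes weigh most in this sum. Vim, the brightest, read 39446, 38125 and 31366 with O(5R)SK and 40322, 43878 and 44632 with O(WT)SK. Thy1, Postn and Fap were lower on day 7 than on day 3 in both combinations. The part of these cells in the falls of Itga5 and Itga1 was not tested either.

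Other probe sets served as a second reading of the same RNA. Of the members, 12 had several probe sets above the filter, and for 9 of these all probe sets had the same sign for day 7 minus day 3. The exceptions were Itga4, Itgav and Itgb1, whose values lay between -0.25 and 0.36. Lamb1 had 3 probe sets from -0.48 to -0.30, Lamc1 2 from 0.27 to 0.43 and Lama4 2 from 0.26 to 0.55. Itga6 had 2, at 0.30 and 0.35. Lamb3, Lamb2, Lama1, Itgb2 and Itgb8 each rest on a single probe set.

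**Figure D3:**
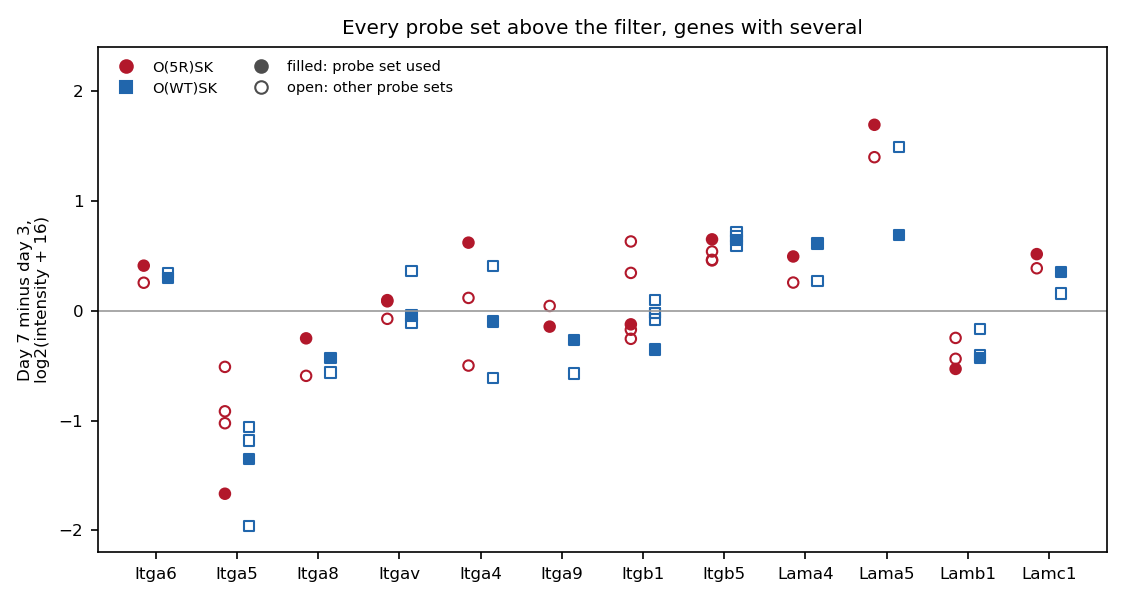
Day 7 minus day 3 in log2(intensity + 16) for each probe set above the filter of the 12 members with several; red circles are O(5R)SK and blue squares O(WT)SK, filled for the probe set used for the gene and open for the others. All probe sets of Itga5 lie below 0 and all of Itgb5 and Lama5 above it, while those of Itgb1, Itga4 and Itgav straddle it.

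Genes that work with these receptors were followed in 5 lists. Of 41 genes of the adhesion machinery inside the cell, 35 were tested, of which 9 fell and 1 rose, beside 3.68% and 6.52% of all genes, with a median change of -0.38. The lower genes were Lims2 (-1.59, SE 0.13, adjusted p = 0.0117), an adaptor of the integrin-linked kinase, Fermt3 (-1.08, SE 0.096, adjusted p = 0.0125), the kindlin of blood cells, Fermt2 (-0.94), the kindlin of fibroblasts, Ilk, Pdlim5, Tgfb1i1, Vcl, Fyn and Bcar1. Tns2 (1.01, SE 0.11, adjusted p = 0.0178), a tensin, rose. Without either day 5 array 5 of this list were called lower, with the stricter filter 17, with a pseudocount of 64 15, and under the trended, robust prior 19. In all 5 lists 0 genes were called without any 1 of the day 3 and day 7 arrays. Smooth muscle genes, given above, were lower over the same days.

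Of 26 basement membrane partners of laminin, 23 were tested, of which 4 rose and 2 fell (median 0.31), beside 6.52% and 3.68% of all genes. A pseudocount of 64 gave 7 higher and the trended, robust prior 9. Egfl6, which encodes a matrix ligand of the Itga8 receptor, changed by 3.56 (SE 0.53, adjusted p = 0.0284) and Frem2, a basement membrane protein of epithelia, by 1.52 (SE 0.24, adjusted p = 0.0335), while Col15a1 read 1.25 without passing the test (SE 0.36, adjusted p = 0.102). Of 36 integrin ligands outside the laminins, 24 were tested, of which 5 rose and 3 fell (median -0.05), beside the same shares of all genes. The largest values were those of Egfl6, Jam2 (2.07, SE 0.098, adjusted p = 0.00765), a junctional adhesion molecule, and Tgfb3 (-1.99, SE 0.12, adjusted p = 0.00777), whose latent form is held by integrins. Of the 14 other laminin receptors and linkers, all tested, 1 rose and 1 fell, close to the shares of all genes. They were Cd151 (0.48, SE 0.095, adjusted p = 0.0485), a tetraspanin bound to laminin receptors, and the syndecan Sdc3 (-0.55, SE 0.097, adjusted p = 0.0401), while Sdc1 read 0.47 (SE 0.15, adjusted p = 0.118). Of 12 tested tetraspanins and other lateral partners, Cd82 (1.12, SE 0.10, adjusted p = 0.0132) and Cd151 rose. The urokinase receptor gene Plaur (-0.80, SE 0.11, adjusted p = 0.0246) fell. These counts stand beside the same shares of all genes, 6.52% higher and 3.68% lower. The calls of Cd151 and Sdc3 were lost when either day 5 array was left out and with the mean of probe sets, and that of Cd151 with a common median. The mean of probe sets also lost the call of Cd82.

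Setting the O(5R)SK arrays against those of O(WT)SK on the same days asks whether the OCT4 version altered these genes. No member passed the threshold: limma called 0 of 28 members and 0 of 12622 genes (0%), and the smallest adjusted p among the members was 0.368. At an unadjusted p under 0.05 there were 3 members higher with O(5R)SK (5.44% of all genes) and 1 lower (3.91%), and the trended, robust prior and all other alternatives also called 0 members. The median difference of the tested members was 0.03, beside -0.01 for all genes. Of the tested members, all 3 O(5R)SK arrays read above all 3 O(WT)SK arrays for 0 (4.63% of all genes) and below them for 0 (4.71%). Among those under the filter Itgax was lower on all 3. For the OCT4 gene itself, Pou5f1 read 4087, 4042 and 4803 on days 3, 5 and 7 with O(5R)SK and 2290, 2292 and 2741 with O(WT)SK, a difference of 0.82 that missed the threshold (SE 0.076, adjusted p = 0.217). Whether its probes read the introduced OCT4 is not given in the labels. For the members on matched days the sign was the same on all 3 for 5 members higher with O(5R)SK (15.9% of all genes) and 4 lower (17.9%).

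Itgb3 had the most negative difference. It read 148, 106 and 162 on days 3, 5 and 7 with O(5R)SK and 190, 137 and 251 with O(WT)SK. O(5R)SK was the lower on each day, though the ranges overlap across days. The mean difference was -0.42 (SD 0.15 over 3 days, SE 0.094, adjusted p = 0.368), and with the mean of its probe sets, the other of which was near the floor, it was -0.05.

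Lama1 and Itga8, whose values are given above, were higher with O(5R)SK on each of the 3 days. The difference was 0.41 for Lama1 (SE 0.14, adjusted p = 0.496), and 0.23 without either day 5 array. For Itga8 it was 0.32 (SE 0.12, adjusted p = 0.515), and 0.04 with the mean of its probe sets, the second of which read -0.25. Lama3 differed by 0.26 (SE 0.098, adjusted p = 0.530), near the filter, and by 0.13 with a pseudocount of 64. The other differences of constant sign were smaller. Lamb2 gave 0.11 (SE 0.085, adjusted p = 0.698), and 0.06 without either day 5 array. Lamb1 gave -0.14 (SE 0.079, adjusted p = 0.643), and -0.07 with the mean of its probe sets. Itgb5 gave -0.06 (SE 0.076, adjusted p = 0.796) and Itga1 -0.04 (SE 0.078, adjusted p = 0.879). Itga6 gave 0.06 (SE 0.081, adjusted p = 0.825), and its other probe set -0.08. With the mean of probe sets Itgb5 gave -0.02 and Itga1 -0.23. Several members were thus nearly the same in both combinations on every day, with Itgb5 differing by -0.06 on each.

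**Figure D4:**
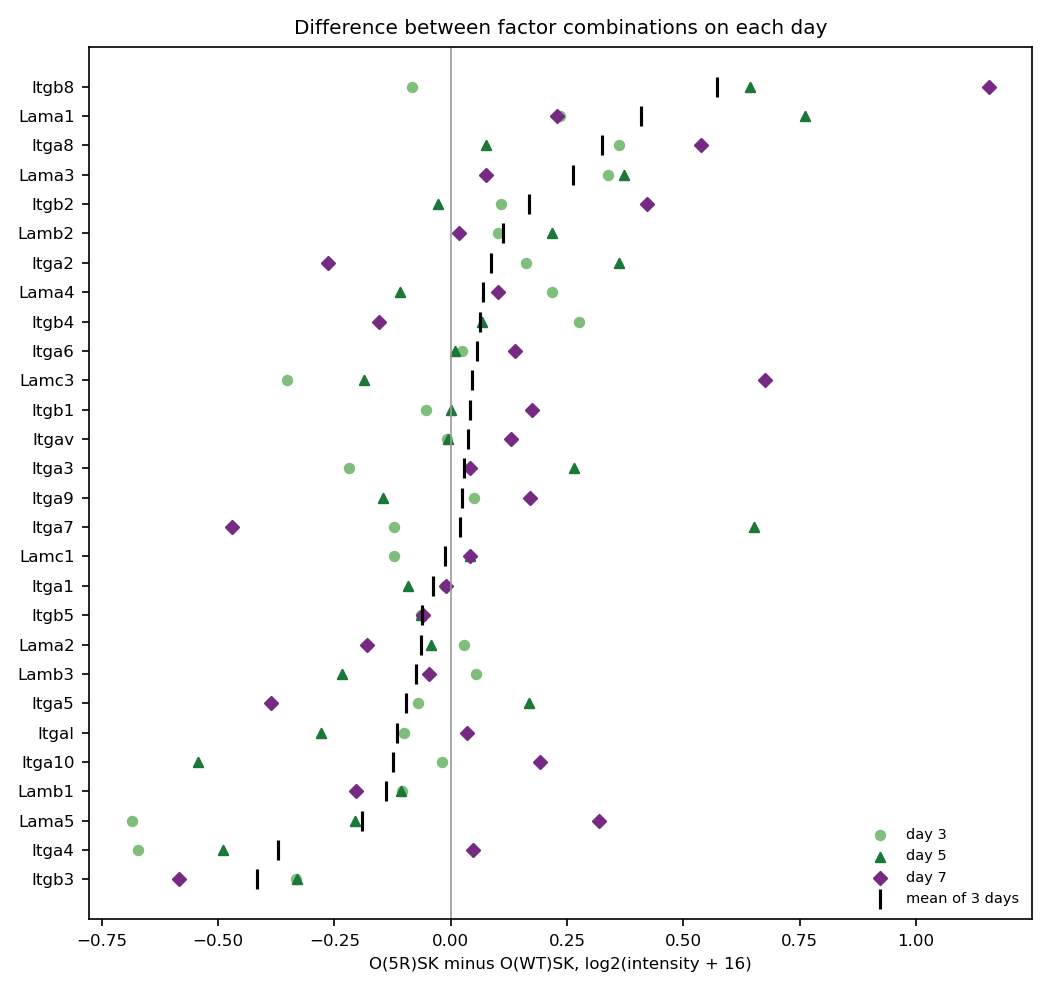
O(5R)SK minus O(WT)SK in log2(intensity + 16) for the 28 tested members, on day 3 (light green circles), day 5 (dark green triangles) and day 7 (purple diamonds), with black ticks for the mean of the 3 days, ordered by that mean. Itgb8 runs from -0.08 on day 3 to 1.16 on day 7 and Lama5 from -0.69 to 0.32, while the 3 days of Itgb5 coincide.

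The difference of slopes asks whether the change over days depended on the OCT4 version. It was past the threshold for 0 of 28 members and 0 of 12622 genes (0%) in limma, with 3 members at an unadjusted p under 0.05 in the positive direction (4.92% of all genes) and 0 in the negative direction (2.60%). The 3 were Itgb8 (1.24 per 4 days, SE 0.44, adjusted p = 0.655), Lamc3 (1.03, SE 0.27, adjusted p = 0.647) and Lama5 (1.00, SE 0.16, adjusted p = 0.647). Itgb8 changed by 1.88 from day 3 to day 7 with O(5R)SK and by 0.64 with O(WT)SK, on its single probe set. Leaving out O(5R)SK day 3 gave a slope difference of 0.41, leaving out O(5R)SK day 7 gave 2.07 and leaving out O(WT)SK day 7 gave 0.62.

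The Lama5 probe sets disagreed about the slopes. The one used for the gene changed by 1.69 with O(5R)SK and 0.69 with O(WT)SK. The other, which read 82.3, 158 and 243 with O(5R)SK and 72.2, 149 and 232 with O(WT)SK, changed by 1.40 and 1.49. Both probe sets were higher on day 7 in both combinations, and with the mean of its probe sets the slope difference of Lama5 was 0.30. For Lamc3 the difference was 0.54 without O(WT)SK day 7 and 0.55 with a pseudocount of 64.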

How the data were processed

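The authors' deposited values are linear intensities, 1 per probe set and array, made with affy per the submitters' processing notes, and scaled to a 2% trimmed mean of 500 on each of the 6 arrays. The affy version, summary method, background correction and array build were not given in the sources used here. Of 45101 probe sets, 34958 name 1 gene in the platform annotation, 932 several and 9211 none. Of the first, 34754 were found in the RefSeq gene table (GRCm38.p6), which changed 0 symbols. Tests left out the 64 control probe sets, and 0 columns of per-sample values went unused.

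Values were taken as log2(intensity + 16), a scale that understates changes of dim genes. limma 3.58.1 (lmFit, eBayes) in R 4.3.3 fitted factor combination and day (3 levels) over 12622 genes, with 2 residual degrees of freedom and a prior of 2.6. A second fit of combination by day as a number gave the difference of slopes, per 4 days. P-values were adjusted by Benjamini-Hochberg over all tested genes, with a threshold of 0.05. The fits were also run on simulated data with independent noise for each array, which cannot speak to the lack of replicates here. The number of arrays limits the precision, and nothing in the labels says whether days or combinations came from separate cultures. Figures used Python 3.11.15, pandas 2.3.3 and matplotlib 3.10.9.

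Members, accompanying lists and tests were chosen with earlier results of these data known. Test values are given for members past the threshold, for the 6 highest and 6 lowest changes over days, for the 4 highest and 4 lowest differences between combinations of constant sign, for the 3 widest slope differences and for the 3 widest changes of each accompanying list. Other listed genes, and the test values of Itga6, Lama4 and Lamc1, were added after their values were seen. Alternatives were another pseudocount, filter, probe set rule, scaling, variance prior and day term, and leaving out each array.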

Additional observations from a re-analysis of the deposited data

How the results depend on the processing

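The numbers of members called for day 7 minus day 3, 4 higher and 3 lower, depended on the setting. A pseudocount of 64 gave 8 higher, the stricter filter at the 60th percentile 8 and the trended, robust prior 9, while no filter gave 0 higher and 0 lower. Without 1 array the counts ran from 0 to 5 higher and from 0 to 3 lower, where each fit has fewer residual degrees of freedom. The remaining alternatives stayed within 1.5 times of both counts, and the cause was not tested. Lamb2 and Lamb3 were called in each setting that keeps all arrays and a filter, and so was Itga5. Among the members' changes and differences followed through the alternatives, none turned its sign. Of such values, 290 kept their side of the threshold, 38 lost it and 24 gained it. Much of this was fixed beforehand. Another filter, prior or day term leaves the estimates unchanged. Differences between combinations were picked for a constant sign on all 3 days, so leaving out an array cannot turn them. Neither they nor the slope differences were called in any setting. The values followed did not include the Itga6 difference between combinations. They also left out small changes over days, such as those of Itgav, Itga3, Itga2 and Lama2, so the signs of these are not settled. For O(5R)SK minus O(WT)SK and for the difference of slopes, all alternatives called 0 members. A common median moved the change over days of the median gene by -0.101 and the share of higher calls among all genes to 49.4%, against 63.9%. It too gave 4 members higher and 3 lower, with Lama5 called in place of Itgb5. Quantile normalization gave 55.8%, the stricter filter 56.6% and the trended, robust prior 55.2%. The members' median change over days, 0.11, was 0.01 with a common median and 0.25 with the stricter filter. Their median difference between combinations, 0.03, lay between -0.03 and 0.05 and so had no settled sign. The fit compares the combinations within days, and no further paired analysis was possible with 1 array for each combination and day. Dim genes near the filter, such as Itga2, Itga10, Lama3 and Lamc3, carry the least certain values.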

Other observations

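Genes outside the rule that carry an integrin name were read for comparison, chosen after their values were seen. Itgbl1, which encodes a secreted protein with integrin-like repeats, read 1939, 2424 and 2706 on days 3, 5 and 7 with O(5R)SK and 1848, 2555 and 3147 with O(WT)SK. Its days were in order in both combinations, and it rose by 0.62 (SE 0.11, adjusted p = 0.0435 in limma). Itga2b, the platelet subunit that pairs with Itgb3, read 120, 199 and 199 with O(5R)SK and 157, 196 and 185 with O(WT)SK, a change of 0.44 that was not past the threshold (adjusted p = 0.126). Over the same days the platelet markers Pf4 and Ppbp were lower by the test. Gp1bb was higher without passing it (0.56, adjusted p = 0.0536), and Gp6 and Gp9 lay below the filter.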
